A study of Mus musculus with 8 samples.

Results

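Peroxisome genes were followed in cultured hepatocytes, the parenchymal cells of the liver, from p16 knockout mice and p16 wild type littermates. They are 35 listed genes of 2 kinds, 13 peroxins, the proteins that build the organelle, and 22 enzymes and transporters that work in it. A gene was taken up if the platform annotation tied a row of the array to its symbol and no other, and the row of highest mean over the 8 arrays was kept where it had several. This gave values for all 13 peroxins and 21 of the enzymes and transporters, 34 genes of 22180 with a row of their own. Acot8 was not analysed here, because its row also names another gene. The acyl-CoA transporter gene Abcd2 lay below the cut for dim genes, so that 33 members were tested.

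There were 4 arrays of p16-/- hepatocytes and 4 arrays of p16+/+ hepatocytes. p16 is the product of Cdkn2a that restrains the kinases CDK4 and CDK6; the labels give neither how the allele was made or which part of the gene it removes nor the age or sex of the mice. All cultures were plated for 16 h with insulin (100 nM), dexamethasone (25 nM) and fetal bovine serum (10%), were then kept for 8 h at 1 mM glucose with albumin (0.1%), and gave RNA at 24 h. The labels call the arrays biological replicates without naming the animals, so the p-values rest on the spread between samples that may be technical, and the 4 arrays per group limit the precision of every value. The question here is which peroxisomal genes differ with the loss of p16 in low-glucose medium.

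Peroxisomes are single-membrane organelles that shorten very long and branched fatty acids, oxidise amino acids and glycolate, and destroy the hydrogen peroxide that these reactions release. Their enzymes are made in the cytosol, recognised by cargo receptors through short targeting signals, and carried through a docking and export machinery of peroxins in the membrane. In rodent liver the nuclear receptor PPARa, which binds fatty acids and pairs with RXR, is known for raising the genes of several peroxisomal enzymes and, with them, the number of the organelles.

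Values are log2 expression levels after RMA, with array medians of 3.76 to 3.88 over all rows, and changes are knockout minus wild type. Over all 15380 genes tested, 13.8% were called at an adjusted p under 0.05 (limma, Benjamini-Hochberg adjustment), 1080 higher and 1039 lower, a split that was 1066 to 640 when each array was centred on its median. Cdkn2a itself was at 4.53 ± 0.31 in knockout and 4.53 ± 0.28 in wild type cells (SD, n = 4 each, exact permutation p = 1, two-sided); whether its probes lie in the deleted part is not given, so the row does not check the genotype. The hepatocyte product gene Alb was at 13.57 ± 0.01 in knockout and 13.54 ± 0.03 in wild type cells. Ttr was at 12.97 ± 0.01 in knockout and 12.78 ± 0.09 in wild type cells, and neither gene was called. They are the 2 brightest of 15 mature hepatocyte markers, of which 10 were called higher and none lower. Changes of these markers ran from -0.03 (Apob) to 2.69 (Arg1). On the first principal component (47.5% of the variance) knockout arrays lay at 17.6 to 21.7 and wild type arrays at -23.0 to -16.8. On the second (17.9%) knockout replicate 4 lay at -25.2, against -8.91 to 14.6 for the other arrays. Markers of other cells also differed between the groups. Of 14 markers of sinusoidal endothelial cells 13 fell, with Cdh5 at 6.21 ± 0.05 in knockout and 8.24 ± 0.11 in wild type cells and Lyve1 at 6.33 ± 0.24 in knockout and 8.06 ± 0.10 in wild type cells. Of 12 tested Kupffer cell and macrophage markers 9 fell, C1qa among them (log2 change -0.38), and Cd68 rose (0.58). The C1qa call was lost under 9 of 22 alternatives. Of 11 tested stellate cell markers 5 fell, Ecm1 among them (-0.95), and Reln rose (0.99). Of 5 tested cholangiocyte markers Cldn4 rose (1.15) and 4 were not called, Sox9 among them (-0.12). Of the 6 cholangiocyte markers with a row 5 had a negative change, and the median change was -0.13.

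Of the 33 members tested, 10 rose in the knockout, 23 missed the threshold and none fell. That is 30.3% higher, where 7.02% of all genes tested were called higher and 6.76% lower. The enzymes and transporters held 9 of the rises, among 20 tested (45%), and the peroxins held 1, among 13 (7.69%). The median change was 0.26 over the 21 enzymes and transporters and 0.04 over the peroxins, beside -0.02 over all genes tested. The rises ran from 1.37-fold to 2.47-fold, and 2 of them, those of Pipox and Scp2, reached 2-fold. With a change of 1.5-fold required, 6 members were called higher. For 9 of the 33 members tested every knockout array lay above every wild type array, and for 1 (Pex14) every knockout array lay below. The 9 were among the 10 risen genes, with gaps between the groups of 0.15 to 1.05. Calls and separation rest on the same arrays, so the separation of called genes is no further support. Over all genes tested 20.2% were separated without overlap, 9.13% with the knockout above. Without knockout replicate 4, 10 members were again called higher.

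**Figure D1:**
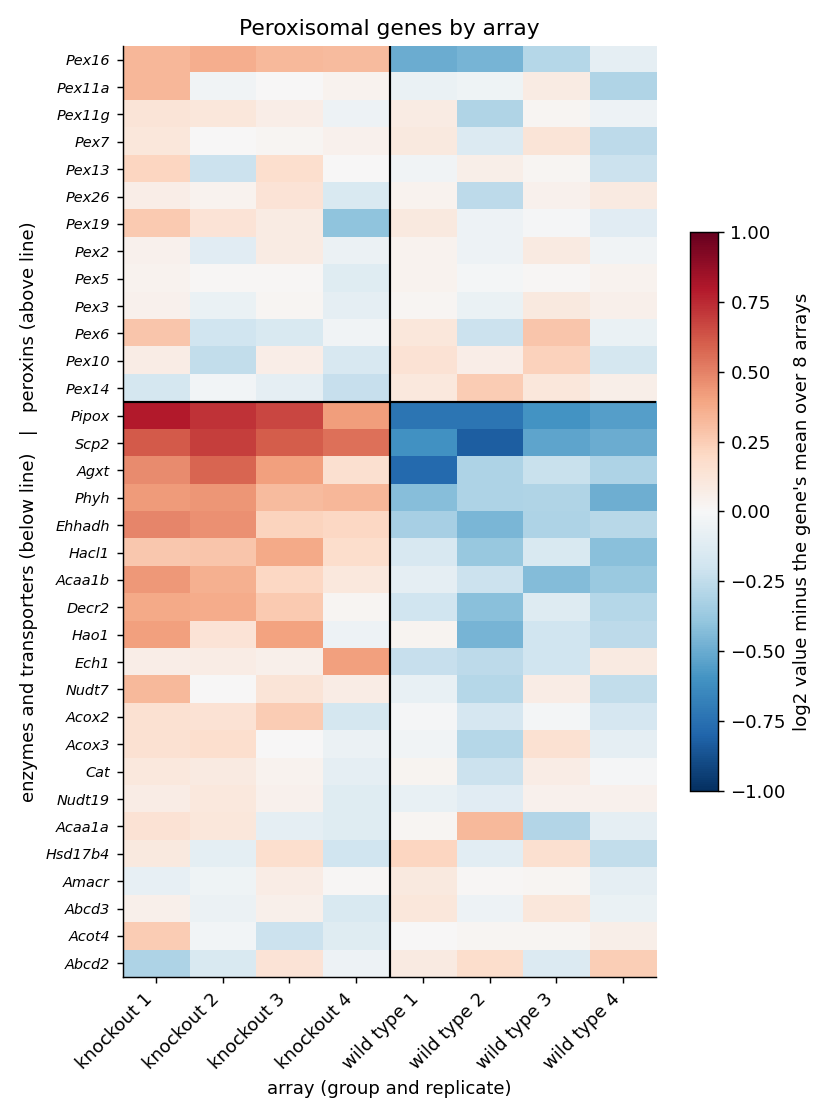
Heat map of the 34 peroxisomal genes (rows) on 4 knockout arrays (left) and 4 wild type arrays (right); colour is the log2 value minus the mean of the gene over the 8 arrays. Pipox and Scp2 have the strongest contrast between the groups, most peroxins above the line have little, and Pex16 is the peroxin that was called.

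Mature hepatocyte markers were higher on the same arrays. Of 15 such markers 10 rose and none fell, and their mean log2 level ran from 9.96 to 10.19 on the knockout arrays and from 9.00 to 9.22 on the wild type arrays. The mean log2 level of the endothelial markers ran from 4.78 to 4.92 in knockout and from 5.89 to 6.07 in wild type cells, and that of the macrophage markers from 4.43 to 4.52 in knockout and from 5.11 to 5.19 in wild type cells. For stellate markers the ranges were 4.31 to 4.43 in knockout and 4.91 to 5.00 in wild type cells. For cholangiocyte markers they were 5.41 to 5.70 in knockout and 5.37 to 5.58 in wild type cells. The cholangiocyte mean includes Cldn4, the 1 marker of that list with a positive change. All 14 endothelial markers had means above the dim-gene cut of 3.32, and Cd163, Ptprc, Lum and Cftr of the other lists lay below it. The part of these shifts in the changes of peroxisomal genes was not tested, and in RNA from whole cultures fewer cells of a type and less RNA per cell cannot be told apart.

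The windows around the annotated start sites of 6 members are shown because they cover the largest rises (Pipox, Scp2), an alpha-oxidation gene (Phyh), the risen peroxin (Pex16) and a pair of thiolase genes that differed in their change (Acaa1b and Acaa1a). Each runs from 250 bases before to 50 bases after a RefSeq start site in GRCm38.p6 and is read along the strand of the gene. The windows are chr4:108118498-108118797 (minus strand) for Scp2, chr2:4918746-4919045 (plus) for Phyh, chr11:77893823-77894122 (minus) for Pipox, chr2:92374426-92374725 (plus, 1 of its 2 windows) for Pex16, chr9:119157044-119157343 (minus) for Acaa1b and chr9:119341044-119341343 (plus) for Acaa1a. Capitals mark AGGTCA, the hexamer that PPARa and related receptors bind, GGGCGG, known as the GC box, and CCAAT, each on either strand.
Scp2: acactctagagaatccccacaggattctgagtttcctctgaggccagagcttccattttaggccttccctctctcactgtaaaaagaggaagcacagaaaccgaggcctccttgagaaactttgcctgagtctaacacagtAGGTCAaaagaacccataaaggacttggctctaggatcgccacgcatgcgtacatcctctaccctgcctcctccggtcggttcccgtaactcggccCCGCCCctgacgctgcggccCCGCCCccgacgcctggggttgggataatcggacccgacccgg
Phyh: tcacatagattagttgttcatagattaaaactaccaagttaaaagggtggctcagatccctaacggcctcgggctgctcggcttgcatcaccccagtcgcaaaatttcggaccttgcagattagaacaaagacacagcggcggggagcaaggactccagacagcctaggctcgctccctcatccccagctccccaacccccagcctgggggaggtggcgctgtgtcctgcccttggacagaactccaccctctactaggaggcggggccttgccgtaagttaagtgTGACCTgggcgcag
Pipox: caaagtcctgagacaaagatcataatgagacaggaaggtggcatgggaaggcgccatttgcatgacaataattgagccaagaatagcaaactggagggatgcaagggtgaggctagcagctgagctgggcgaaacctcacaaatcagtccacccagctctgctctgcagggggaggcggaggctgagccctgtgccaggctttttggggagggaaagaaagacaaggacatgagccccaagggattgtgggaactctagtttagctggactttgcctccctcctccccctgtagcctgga
Pex16: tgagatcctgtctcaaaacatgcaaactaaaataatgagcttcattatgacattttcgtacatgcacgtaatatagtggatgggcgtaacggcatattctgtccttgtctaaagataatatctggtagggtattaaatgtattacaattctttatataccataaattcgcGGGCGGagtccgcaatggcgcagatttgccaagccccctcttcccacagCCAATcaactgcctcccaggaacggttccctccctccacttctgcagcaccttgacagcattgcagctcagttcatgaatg
Acaa1b: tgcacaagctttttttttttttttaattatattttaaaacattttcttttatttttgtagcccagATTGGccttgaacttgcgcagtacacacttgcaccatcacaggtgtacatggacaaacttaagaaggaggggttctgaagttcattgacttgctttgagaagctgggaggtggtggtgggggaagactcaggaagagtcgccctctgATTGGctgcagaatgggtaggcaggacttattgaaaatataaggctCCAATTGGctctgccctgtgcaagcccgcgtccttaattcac
Acaa1a: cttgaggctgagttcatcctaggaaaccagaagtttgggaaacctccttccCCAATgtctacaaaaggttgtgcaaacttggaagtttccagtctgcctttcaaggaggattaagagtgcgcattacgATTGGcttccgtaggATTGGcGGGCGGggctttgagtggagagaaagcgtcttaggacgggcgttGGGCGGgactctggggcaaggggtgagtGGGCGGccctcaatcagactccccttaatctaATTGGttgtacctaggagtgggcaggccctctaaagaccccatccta

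In these windows AGGTCA was found 109 bases before the start of Scp2 and, on the opposite strand, after the start of Phyh, and not in the other 4. In the set of RefSeq windows used here 29 members had a window, 35 windows in all, some of which overlap. AGGTCA was in 5 of them (14.3%), and in 16.3% of all 32851 promoter windows. A direct repeat of the looser hexamer AGGNCA with 1 base between the copies, the form that PPARa and RXR bind together, was in none of the members' windows and in 0.381% of all windows. GGGCGG was in 10 of 14 peroxin windows (71.4%), in 10 of 21 windows of enzymes and transporters (47.6%) and in 35.7% of all windows. CCAAT was in 4 of 14 peroxin windows and 7 of 21 windows of the enzymes and transporters, and in 37.4% of all. Both thiolase windows hold 4 copies of CCAAT, and the Acaa1a window also holds 3 copies of GGGCGG, where that of Acaa1b has none. The Pex16 window that is shown holds 1 copy each of GGGCGG and CCAAT, and its other window holds none of these motifs. The median GC content was 56.3% over the members' windows and 52.7% over all. These are matches of letters in short windows and say nothing of binding.

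The core of peroxisomal beta-oxidation, the cycle that shortens acyl-CoAs, held 3 risen genes among 7. Scp2 had the smallest adjusted p of the members. Its gene encodes, from separate start sites, a thiolase for branched acyl-CoAs and sterol carrier protein, and the row does not tell these products apart. Scp2 was at 10.87, 10.95, 10.86 and 10.81 on the knockout arrays, against 9.65, 9.43, 9.73 and 9.76 on the wild type arrays. The lowest knockout array was 1.05 above the highest wild type array. This is a 2.34-fold rise (log2 change 1.23, SE 0.10, adjusted p = 1.18e-05).

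Ehhadh, the bifunctional hydratase and dehydrogenase for straight-chain substrates and a classical PPARa target in rodents, was at 6.73, 6.70, 6.47 and 6.45 in knockout and 5.91, 5.79, 5.94 and 5.97 in wild type cells. The groups did not overlap, and the difference was 1.61-fold (log2 change 0.69, SE 0.10, adjusted p = 0.000813). The other bifunctional enzyme, encoded by Hsd17b4 and needed for branched and very long chains, was at 8.74, 8.54, 8.81 and 8.44 in knockout and 8.86, 8.54, 8.80 and 8.40 in wild type cells. Its groups overlapped over nearly their whole range, with a change of -0.02 and a 95% interval of -0.29 to 0.26 (adjusted p = 0.957).

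The mouse has a pair of closely related genes for the straight-chain thiolase, the last enzyme of the cycle. Acaa1b was at 6.28, 6.20, 6.05 and 5.95 in knockout and 5.75, 5.63, 5.42 and 5.48 in wild type cells. Every knockout value lay above every wild type value, and the rise was 1.47-fold (log2 change 0.55, SE 0.11, adjusted p = 0.00622). Acaa1a was at 5.44, 5.40, 5.21 and 5.17 in knockout and 5.31, 5.62, 5.00 and 5.20 in wild type cells. Here the knockout values lay inside the wild type range, with a change of 0.02 and a 95% interval of -0.27 to 0.31. The sequences of the pair are alike enough that probes may respond to both, so their separate values are uncertain, and the difference between their changes was not tested.

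The acyl-CoA oxidases open the cycle and pass their electrons to oxygen. Acox2, which acts on branched chains and bile acid intermediates, had a change of 0.19 (95% interval -0.05 to 0.42), and knockout replicate 4, at 7.69, lay level with the lowest wild type arrays while the other knockout arrays, at 8.01 to 8.12, were above all of them. Acox3, an oxidase for branched chains, had a change of 0.13 (95% interval -0.11 to 0.37). Neither passed the test.

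Of the auxiliary enzymes that prepare unusual acyl-CoAs for the cycle, Decr2 rose. It encodes the peroxisomal reductase for dienoyl-CoAs and was at 8.42, 8.41, 8.30 and 8.06 in knockout and 7.84, 7.63, 7.91 and 7.75 in wild type cells. Knockout replicate 4 was nearest to the wild type arrays, and the groups did not overlap (1.43-fold, log2 change 0.52, SE 0.11, adjusted p = 0.00847). Ech1, a dienoyl-CoA isomerase found in peroxisomes and mitochondria, was at 9.20, 9.20, 9.18 and 9.55 in knockout and 8.90, 8.87, 8.93 and 9.22 in wild type cells. In both groups the array numbered 4 was the highest, the groups overlapped through wild type replicate 4, and the change of 0.30 (SE 0.12, adjusted p = 0.115) did not pass; with the replicate number as a block its adjusted p was 0.0441. Amacr, the racemase that turns branched acyl-CoAs into the form the oxidases accept, had a change of -0.02 (95% interval -0.21 to 0.17).

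Both measured genes of alpha-oxidation, which takes 1 carbon off branched fatty acids such as phytanic acid, rose. Phyh, the hydroxylase that opens the pathway, was at 9.15, 9.16, 9.03 and 9.05 in knockout and 8.29, 8.41, 8.42 and 8.23 in wild type cells. The groups lay 0.61 apart at their nearest arrays (1.69-fold, log2 change 0.76, SE 0.09, adjusted p = 0.000175). The array has another row for Phyh, of lower mean, which read 7.62, 7.62, 7.57 and 7.43 in knockout and 6.52, 6.64, 6.77 and 6.34 in wild type cells, a 1.99-fold difference in the same direction. Hacl1, the lyase that cleaves the hydroxylated acyl-CoA, was at 6.02, 6.03, 6.14 and 5.93 in knockout and 5.60, 5.38, 5.60 and 5.33 in wild type cells. The groups did not overlap, and the difference was 1.47-fold (log2 change 0.55, SE 0.10, adjusted p = 0.00308).

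Genes of peroxisomal amino acid and glyoxylate metabolism held the largest rise. Pipox, the oxidase of pipecolic acid and sarcosine, was at 8.30, 8.22, 8.17 and 7.92 in knockout, against 6.77, 6.77, 6.90 and 6.95 in wild type cells. The groups lay 0.96 apart at their nearest arrays, and the rise was 2.47-fold (log2 change 1.30, SE 0.10, adjusted p = 1.30e-05). Agxt, the aminotransferase that turns glyoxylate into glycine, was at 6.44, 6.55, 6.38 and 6.13 in knockout and 5.19, 5.66, 5.75 and 5.66 in wild type cells. Wild type replicate 1 was well below the other wild type arrays, and all knockout arrays were above all of them (1.75-fold, log2 change 0.81, SE 0.14, adjusted p = 0.0024).

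Hao1, the glycolate oxidase that makes glyoxylate, was at 6.37, 6.10, 6.36 and 5.91 in knockout and 5.99, 5.49, 5.76 and 5.70 in wild type cells. It was the risen member whose groups overlapped, through knockout replicate 4 and wild type replicate 1 (1.37-fold, log2 change 0.45, SE 0.14, adjusted p = 0.0491). Its call was lost without knockout replicate 1 (adjusted p = 0.132), 2 (0.0803) or 3 (0.117) and without wild type replicate 2 (0.129), 3 (0.0913) or 4 (0.0987). Catalase, which destroys the hydrogen peroxide that such oxidases make, did not pass the test. Cat was at 11.73, 11.71, 11.66 and 11.53 in knockout and 11.65, 11.41, 11.70 and 11.61 in wild type cells. The groups overlapped, with a change of 0.07 and a 95% interval of -0.14 to 0.28.

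The transporters and the hydrolases that act on CoA and acyl-CoAs held no call. Abcd3, the main acyl-CoA transporter of the liver peroxisome, was at 8.19 to 8.40 in knockout and 8.28 to 8.46 in wild type cells, with a change of -0.05 (95% interval -0.25 to 0.15). Abcd2, a related transporter, was at 2.06 to 2.50 in knockout and 2.23 to 2.61 in wild type cells, below the cut of 3.32. Nudt7, which splits CoA in liver peroxisomes, had a change of 0.26 (SE 0.11, adjusted p = 0.147), and Nudt19, an enzyme of the same activity, one of 0.05. The thioesterase gene Acot4 had a change of -0.05, and its other row one of -0.22; its neighbours on the chromosome are close copies, so its value is uncertain.

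**Figure D2:**
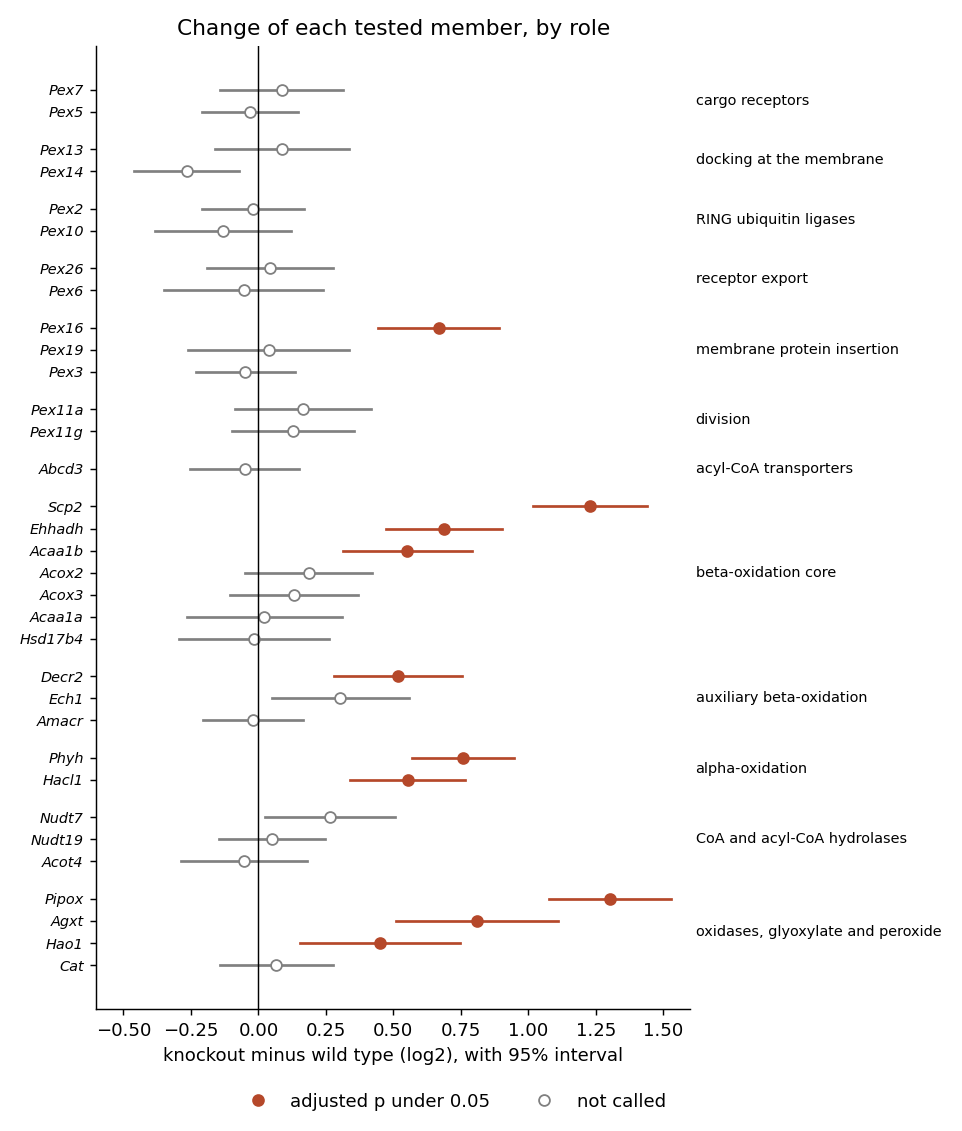
Log2 change, knockout minus wild type, of the 33 tested members with 95% intervals, grouped by role; filled red points passed an adjusted p of 0.05 and open grey points did not. Risen genes stand in the lower groups of enzymes, both alpha-oxidation genes among them, and Pex16 is the risen peroxin.

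Pex16 was the 1 peroxin that passed the test. It works with Pex3 and Pex19 in placing membrane proteins into the peroxisome. It was at 6.64, 6.67, 6.64 and 6.63 in knockout, against 5.81, 5.84, 6.03 and 6.22 in wild type cells. The knockout arrays lay close together and the wild type arrays were spread more widely (SD 0.02 in knockout and 0.19 in wild type cells), and the groups did not overlap (1.59-fold, log2 change 0.67, SE 0.10, adjusted p = 0.00137). Its partners did not pass the test. Pex3 was at 8.38 to 8.52 in knockout and 8.41 to 8.57 in wild type cells. Pex19, the carrier of new membrane proteins, was at 7.41, 7.29, 7.24 and 6.75 in knockout and 7.25, 7.10, 7.14 and 7.03 in wild type cells, so that knockout replicate 4 was the lowest and knockout replicate 1 the highest array.

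The import machinery showed no call. Pex5, the receptor for the common C-terminal targeting signal, was at 7.13 to 7.29 in knockout and 7.23 to 7.29 in wild type cells (change -0.03, 95% interval -0.21 to 0.15). Pex7, the receptor for the N-terminal signal, was at 5.91 to 6.02 in knockout and 5.65 to 6.04 in wild type cells (change 0.09, 95% interval -0.14 to 0.32). At the docking site Pex13 had a change of 0.09 and Pex14 one of -0.27. Pex14 was at 7.69, 7.84, 7.78 and 7.64 in knockout and 7.98, 8.13, 7.99 and 7.93 in wild type cells. All knockout arrays lay below all wild type arrays, as 11.1% of all genes tested did in this direction, but the gap was 0.09 and the adjusted p was 0.0712 (SE 0.09). It was called lower with dim genes filtered at the 60th percentile (adjusted p = 0.0402) or with an intensity trend in the variance (0.0315), and had adjusted p-values of 0.0528 to 0.223 under the other alternatives.

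The ubiquitin ligase genes Pex2 and Pex10 had changes of -0.02 and -0.13. Pex6, an ATPase that pulls used receptors out of the membrane, had one of -0.06, and its anchor Pex26 one of 0.04. Pex11a and Pex11g, which act in peroxisome division and of which Pex11a is known to respond to PPARa in rodents, had changes of 0.16 (95% interval -0.09 to 0.42) and 0.13 (95% interval -0.10 to 0.35). Over the 12 peroxins without a call the 95% intervals lay between -0.46 and 0.42, and 11 of them contained 0.

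**Figure D3:**
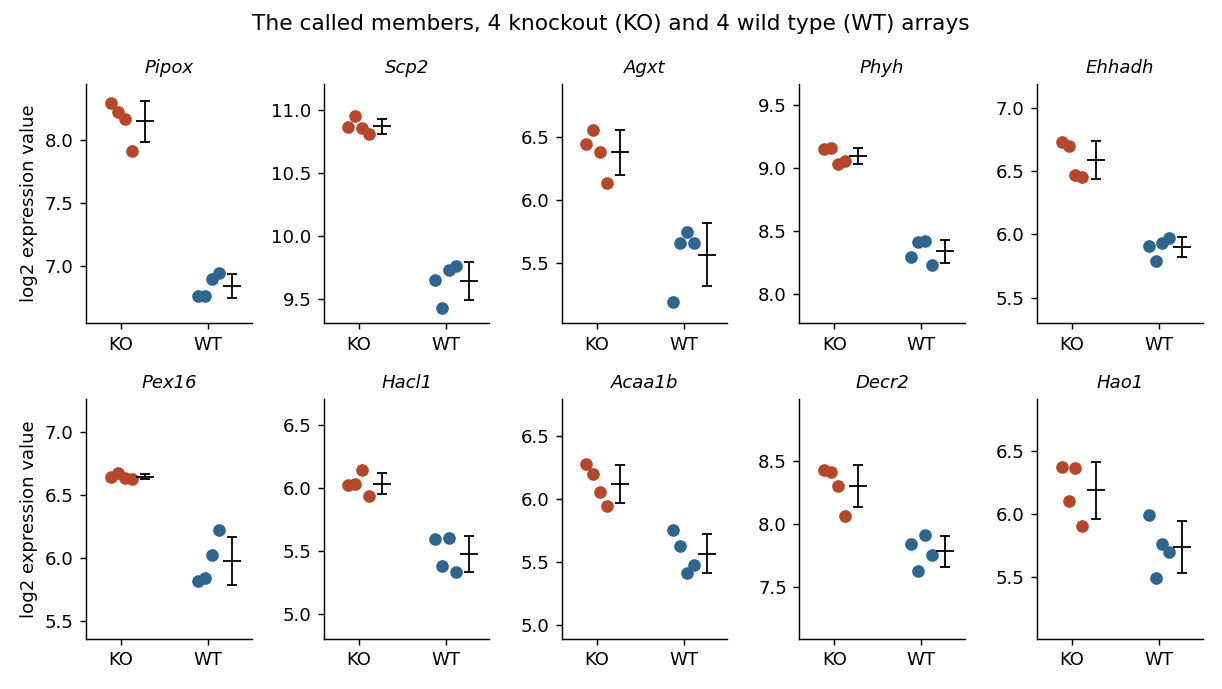
Log2 expression values of the 10 risen members on 4 knockout arrays (KO, red) and 4 wild type arrays (WT, blue), with mean and SD as black bars; each axis spans the same log2 range. Hao1 is the gene whose groups overlap.

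Set side by side on each array, the enzymes and transporters separated the groups and the peroxins did not. The median over the 21 enzymes and transporters of the log2 value minus the gene mean was 0.26, 0.14, 0.17 and 0.02 on the knockout arrays and -0.08, -0.26, -0.14 and -0.24 on the wild type arrays. For the 13 peroxins it was 0.11, -0.03, 0.07 and -0.06 in knockout and 0.04, -0.05, 0.08 and -0.06 in wild type cells, so the groups overlapped. With 1 array left out at a time the median change of the peroxins ran from -0.04 (without knockout replicate 1) to 0.09 (without knockout replicate 4), and it was also below 0 without wild type replicate 2. The enzyme median minus the peroxin median was 0.07 to 0.17 on the knockout arrays and -0.22 to -0.11 on the wild type arrays. Because the genes were chosen with results of these arrays known, this difference is a description and was not tested.

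The order of arrays within a group was shared by many members. Knockout replicate 4 was the lowest knockout array for 15 of 20 tested enzymes and transporters (75%) and for 9 of the 10 risen members, where it was the lowest for 42.8% of all genes tested. Knockout replicate 1 was the highest for 9 of the 13 peroxins (69.2%), where it was the highest for 25.6% of all genes. Among wild type arrays replicate 2 was the lowest for 15 of 33 members (45.5%), beside 32.1% of all genes. On the same arrays the median of the mature hepatocyte markers was lowest in the knockout on replicate 4, at 0.11 above the gene means, and lowest in the wild type on replicate 2, at -0.64.

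**Figure D4:**
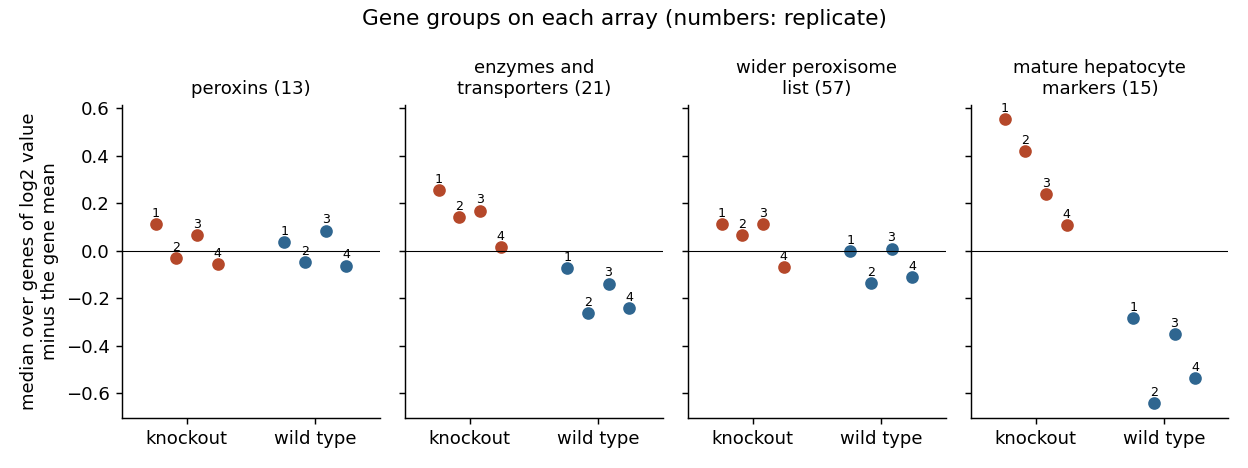
Median over the genes of a group of the log2 value minus the gene mean, for each knockout array (red) and wild type array (blue), numbered by replicate. The enzymes and transporters and the mature hepatocyte markers have all knockout arrays above all wild type arrays, and the peroxins overlap.

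Other peroxisomal genes, from a wider list that excludes the members, held rises and falls. Of 70 listed genes 57 had a row of their own and 53 were tested, of which 9 rose, 2 fell and 42 did not pass. Called were 20.8% of them, beside 13.8% of all genes tested. Higher were 17.0%, where 7.02% of all genes tested were called higher and 6.76% lower. The median change of the wider list was 0.11 over the genes with a row. The 6 risen genes of smallest p were spread over several functions. Ephx2, a hydrolase of fatty acid epoxides, was at 8.40 ± 0.12 in knockout and 7.44 ± 0.19 in wild type cells (SD, n = 4 each, 1.94-fold, adjusted p = 2.10e-04 by limma). Slc27a2, which activates and imports very long-chain fatty acids, was at 9.03 ± 0.07 in knockout and 8.42 ± 0.08 in wild type cells, a change of 0.60 that was 0.35 with the mean of its rows.

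Acot12, an acetyl-CoA hydrolase known mainly from the cytosol, changed by 0.90 (SE 0.12), Gstk1, a glutathione transferase, by 0.80 (SE 0.11), the peroxisomal membrane channel gene Pxmp2 by 0.83 (SE 0.14), and Pmvk, a kinase of the cholesterol pathway, by 0.56 (SE 0.11). The falls were those of Ide, the insulin-degrading enzyme, by 0.44 (SE 0.09), and of Far1, the reductase that supplies fatty alcohols for ether lipids, by 0.39 (SE 0.10, adjusted p = 0.0258). The Far1 call was lost without knockout replicate 1 (adjusted p = 0.0779), 2 (0.0594) or 3 (0.0543) and without wild type replicate 1 (0.0814), 3 (0.0733) or 4 (0.0582).

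Of 11 tested regulators of these genes 3 rose and 1 fell, beside 13.8% of all genes tested called in either direction. Ppara was at 6.01, 6.39, 5.97 and 5.70 in knockout and 5.98, 5.45, 5.94 and 5.86 in wild type cells. The groups overlapped (change 0.21, SE 0.16, adjusted p = 0.437). Its partner Rxra had a change of 0.26 (SE 0.09, adjusted p = 0.0976), which was called with cyclic loess (adjusted p = 0.0269) or quantile normalization (0.0389) on top of the deposited values. The coactivator Ppargc1a was at 6.61, 6.75, 6.62 and 6.11 in knockout and 5.44, 5.21, 5.47 and 5.52 in wild type cells, and its groups did not overlap, a 2.16-fold rise (log2 change 1.11, SE 0.14, adjusted p = 3.42e-04). The other called regulators, named after their values were seen, were Hnf4a, a hepatocyte transcription factor (change 0.93, SE 0.12), and Ppard, a receptor related to PPARa (change 0.72, SE 0.16), which rose, and Rxrb, another RXR (change -0.41, SE 0.10, adjusted p = 0.0205), which fell; for each of them the groups did not overlap. The Rxrb call was lost without knockout replicate 1 (adjusted p = 0.0543) or wild type replicate 1 (0.0672) and with median centring (0.0683). Of 22 tested PPARa targets that act outside peroxisomes 5 rose and 5 fell, which is 45.5% called, beside 13.8% of all genes tested. Their median change was -0.02, but single changes ran from -1.11 (Acot2) to 1.97 (Fabp1). The other falls were those of Cd36 (-1.10), Cyp4a14 (-0.91), Angptl4 (-0.81) and Plin2 (-0.73). The other rises were those of Cpt1a (0.66), Pdk4 (0.47), Acadvl (0.40) and Creb3l3 (0.33). The 33 peroxisomal members held 10 rises and no fall, and the lists were not tested against each other.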

How the data were processed

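RNA of 8 hepatocyte cultures was measured on Affymetrix whole-transcript arrays read as 1 column per array. The deposited values are log2 expression levels made with RMA from the oligo package, per the submitters' processing notes, which give no versions. RMA corrects background, normalizes probes between arrays and then summarises them, which can reduce differences between whole arrays and understate those of dim genes; the medians of the summarised arrays still ran from 3.76 to 3.88, and centring on them was an alternative. Of 41345 rows, 23521 had 1 gene symbol, 1814 several and 16010 none in the platform annotation.

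Genes with a mean log2 value above 3.32, the 40th percentile over rows, were tested with limma 3.58.1 in R 4.3.3 (lmFit, eBayes), with Benjamini-Hochberg adjustment over all 15380 genes and a threshold of 0.05. Intervals and SE are limma's. The procedure was run on simulated data drawn independently for each gene. These had no shifts shared by the genes of an array, so the run does not cover such shifts. The members, the gene lists and the rule for named genes were chosen with earlier results of these data known. The rule took all members, the 6 of smallest p per direction in the wider list, Ppara, Rxra, Ppargc1a and Cdkn2a. It also took the 2 brightest markers per cell type and 1 gene not analysed here. Genes outside this rule, such as those at the ends of a range, were named after their values were seen. Promoter windows are RefSeq's for GRCm38.p6. Figures were drawn with matplotlib 3.10.9 in Python 3.11.15.

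Alternatives covered the filter, the rule for several rows, further normalization, the variance model, array weights, a replicate block, thresholds and leaving out each array.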

Additional observations from a re-analysis of the deposited data

Results flagged for a closer look

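In 6 of 118 groups of 4 arrays, for 59 named genes, an array stood apart by more than Dixon's 95% value, where chance flags about 1 in 20 groups. Knockout replicate 4 did so for Ech1, at 9.55 with the nearest other knockout array at 9.20, and for Pex5, at 7.13 with the nearest at 7.26. Among wild type arrays replicate 1 did so for Agxt, at 5.19 with the nearest at 5.66, and replicate 2 for Pex26, at 6.68 with the nearest at 6.97. The endothelial marker Lyve1 was at 7.90 on wild type replicate 2 with the nearest at 8.09, and the hepatocyte marker Ttr at 12.95 on knockout replicate 1 with the nearest at 12.98. Without wild type replicate 1 the Agxt change was 0.69 and past the threshold.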

How the results depend on the processing

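Of the 10 risen members 6 were called under all 22 alternatives (Scp2, Pipox, Phyh, Ehhadh, Pex16 and Agxt); Acaa1b, Hacl1 and Decr2 lost the call under the required 1.5-fold change and under no other, and Hao1 lost it under 12. Requiring 1.5-fold left 6 members higher, 5 of them enzymes and transporters, 5 genes of the wider list and 895 genes in all. At an adjusted p under 0.01 the counts were 7 for the wider list and 1071 for all genes. With the 60th percentile filter or an intensity trend, 1 member (Pex14) was called lower and 2 peroxins were called. Ech1 was called under the intensity trend and the replicate block. Leaving out 1 array at a time gave 9 to 10 risen members, 8 to 13 calls in the wider list, 1448 to 2165 called genes, and median changes of the peroxins from -0.039 to 0.087 and of the enzymes and transporters from 0.20 to 0.31. Changes that were called under no setting had no direction to turn, and 10 of the members without a call changed sign under at least 1 alternative. Same-numbered knockout and wild type arrays had correlations of their deviations of 0.02 to 0.26, all positive but not all above 0.1. The numbers were not taken as pairs. Differently numbered arrays were not compared in this way, so a shared effect of the replicate number was not tested. With the replicate block 11 members were called higher, and 12 genes of the wider list and 2215 genes in all were called. The causes of these shifts were not tested. Signal over background could not be read from the deposited values, and the 4 arrays per group limit what is detectable.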
